A study of Homo sapiens with 4 samples.

Results

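The genes described here are 34 enzymes and regulators of cholesterol and fatty acid synthesis, found by gene symbol among the 44591 genes measured in 4 RNA-seq libraries of cells labelled HepG2, an established human liver cancer line. All 34 were listed, and all 34 passed the minimum of 5 counts summed over the libraries. Cells at about 70% confluency received siNC, a control siRNA, or siLINC01186, siRNA against the long noncoding RNA LINC01186 (SALIS in the study), with a transfection reagent. Both groups then stood 6 h in DMEM without serum, followed by 24 h with 10% serum. There were 2 libraries per group, numbered replicate 1 and replicate 2. According to the study's description of its RNA-seq, both replicates received the same siNC but different siLINC01186 oligos, and the labels do not say which oligo entered which library. RNA was poly(A)-selected. Counts in each library summed to between 14968958 and 17297245.

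Cholesterol is built from acetyl-CoA through mevalonate, isoprenoid units, squalene and lanosterol, and fatty acids are built from the same acetyl-CoA by acetyl-CoA carboxylase and fatty acid synthase. Both routes are switched on by the SREBP transcription factors. When membrane sterol is low, SCAP carries the SREBPs to the Golgi, where proteases release the active factor, and when sterol is high, INSIG proteins hold SCAP in the endoplasmic reticulum. Hepatocytes are a main site of both pathways in the body, and growing tumour cells commonly use them for membrane supply.

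The labels were checked against their own genes before any comparison. In siNC, replicates 1 and 2 held 15 and 14 counts of LINC01186, against 12 and 14 under the siLINC01186 label. The rate ratio of siLINC01186 over siNC was 0.920, with a 95% exact conditional interval from 0.520 to 1.62 that covers counting error only. The targeted RNA was therefore not detectably lower at these low counts, which do not exclude a fall within the interval. The study reports a knockdown of SALIS by siRNA in HepG2 cells, measured by qPCR and not from these counts. Every direction below is drawn between libraries that carry these labels. Of the 10 hepatocyte markers checked, all but HNF4A were close to absent. ALB, which encodes albumin, had 0 counts in both replicate 1 libraries and 15 and 14 in replicate 2, APOA1 had 0 and 0 against 21 and 20, and TTR had 0, 0, 0 and 3. The summed level of 10 hepatocyte markers was 2.01 and 2.30 TPM in replicate 1 and 10.6 and 8.95 TPM in replicate 2 (siNC, then siLINC01186). At these levels the hepatocyte markers do not bear out the labelled cell line, whose name is used here only as a label. TPM is a count divided by gene length and scaled to the same total in every library. MIR6087 alone held 1.16% and 1.91% of TPM in siNC and 13.8% and 8.69% in siLINC01186. For this reason the libraries are compared by CPM, a count divided by the library size as scaled with edgeR's TMM factors.

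The siNC libraries give the level of each gene under the control siRNA. FASN, the fatty acid synthase that builds palmitate, had the highest level at 483 and 478 TPM in siNC replicates 1 and 2, a mean of 480.2 ± 3.27 (SD, n = 2). It was followed by SCD, the desaturase that makes oleate from stearate, with 278 and 385 TPM. ACLY, which cleaves citrate to supply cytosolic acetyl-CoA, had 290.3 and 313 TPM. The values of SCD and ACLY overlapped between libraries, so their order does not differ beyond the spread, whereas FASN lay above both in each library. FDPS, the synthase of farnesyl diphosphate, stood at 289 and 301 TPM and overlapped ACLY. EBP, a sterol isomerase, stood below both at 246 and 243 TPM.

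Of the 34 genes, 11 had a mean siNC level over 100 TPM, 16 lay between 30 and 100 TPM and 7 lay under 30 TPM. The median was 63.1 TPM. Of the 33 neighbouring pairs in this order, 23 overlapped between the siNC libraries and 10 did not. The low end was held by NPC1L1, the intestinal and hepatic sterol importer, at 0.0493 and 0.285 TPM. Its counts were 2 and 11 in siNC and 3 and 1 in siLINC01186, so that only 1 library exceeded the floor of 3 counts. SC5D, which forms the C5 double bond late in sterol synthesis, had 8.52 and 7.57 TPM. ELOVL6, which lengthens palmitate, had 11.3 and 6.66 TPM.

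The steps of the route were unevenly represented. In the mevalonate pathway the level of 6 enzymes ran from 35.3 TPM for IDI1, the isopentenyl diphosphate isomerase, to 295 TPM for FDPS, with a median of 52.1 TPM. The 11 genes of squalene and sterol synthesis ran from 8.05 to 244 TPM with a median of 72.0 TPM. The 4 SREBP genes were closer together. SREBF1, the lipogenic SREBP, had a mean of 159 TPM, SREBF2, the sterol-directed SREBP, had 102 TPM, and SCAP and INSIG1 had 82.0 and 86.7 TPM. Counts for some members may hold reads of overlapping genes, since the counting rule is not given in the sources used here. Reads of genes on opposite strands cannot be told apart by strand either, since the library kit does not mark it. TM7SF2, a sterol reductase with 630 counts over the 4 libraries, overlaps VPS51 on the same strand, which had 7996. ACAT2, FADS1, FADS2, FDPS and SREBF1 also overlap genes with large counts, on the opposite strand, and the pseudogene HSD17B7P2 carried 9.05% as many counts as HSD17B7.

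**Figure D1:**
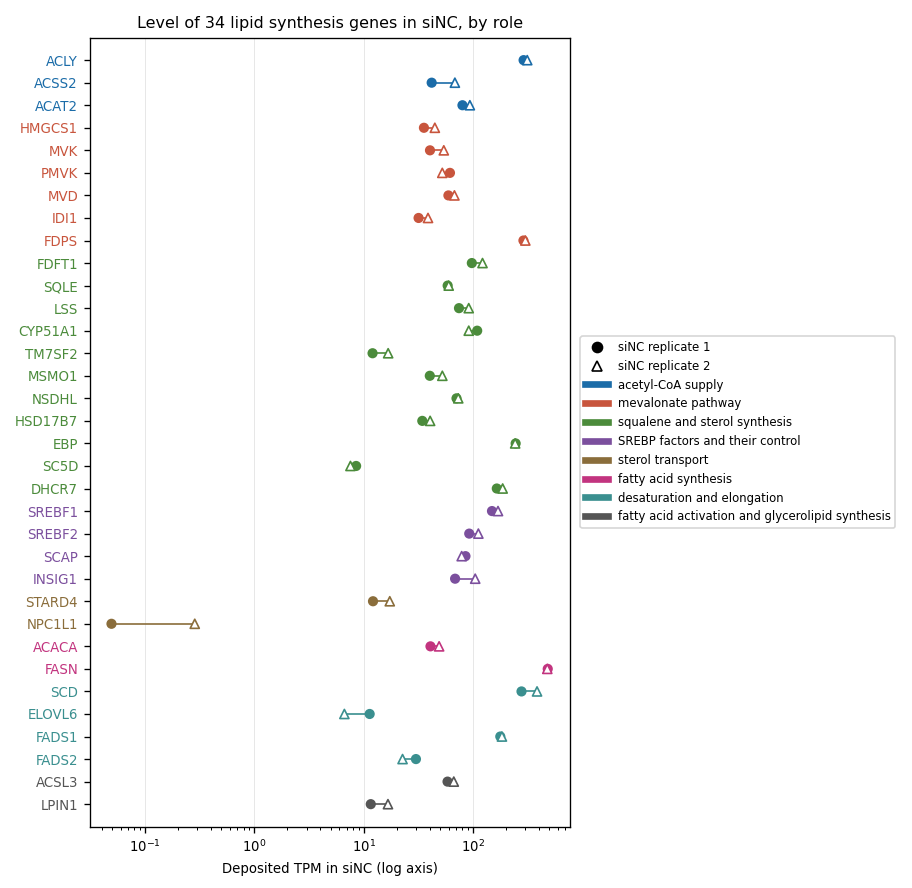
Deposited TPM of the 34 genes in siNC replicate 1 (filled circles) and replicate 2 (open triangles) on a log axis, coloured by role, with a line joining the libraries of a gene. FASN sits highest at 483 and 478 TPM, and NPC1L1 sits lowest and apart from the rest at 0.0493 and 0.285 TPM.

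The comparison of siLINC01186 with siNC asks whether the siRNA against LINC01186 came with a change in lipid synthesis genes. With the siRNA as the only term of the fit, no gene of the 34 was called. edgeR's quasi-likelihood test called 0 of 23942 genes at a Benjamini-Hochberg adjusted p under 0.05, a background of 0%, and 289 genes, or 1.21%, had an unadjusted p under 0.05. None of the 34 did. Past the limits the study states, a log2 fold change beyond 1 with an unadjusted p under 0.05, there were 181 genes, or 0.756%, and again none of the 34. DESeq2's Wald test also called 0 of the 34, and 1 gene in all.

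Most of the genes were nevertheless placed below siNC by small amounts. The fitted log2 fold change was below 0 for 28 of 34, where the background was 11784 of 23942 genes. Its median was -0.12, beside 0.00 over all genes tested. Without siNC replicate 2 the count below 0 was 21 of 34, and without siLINC01186 replicate 1 it was 25. It was 27 without siNC replicate 1 and 27 without siLINC01186 replicate 2. Within replicate 1 the median log2 CPM difference was -0.09, and within replicate 2 it was -0.19, beside 0.01 and 0.00 over all genes. These within-replicate values compare 1 library with 1 library and carry no test. Lower in both numbered comparisons were 18 of the 34, or 52.9%, where the background was 26.6% of all genes and 29.3% of the genes with a mean of at least 100 counts. Higher in both were 4 of 34, HMGCS1, PMVK, FDPS and MSMO1, where the background was 27.2%. Both siLINC01186 libraries lay below both siNC libraries for 7 of 34, where the background was 12.4%, or 12% of the genes with at least 100 counts. They lay above both for 1, PMVK, where it was 13.6%. Genes of a pathway vary together and are not replicates, so these shares are descriptions.

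The 7 genes without overlap were ACLY, MVD, IDI1, LSS, DHCR7, SREBF1 and FASN. FASN had 1881 and 1840.3 CPM in siNC replicates 1 and 2, and 1585 and 1261 CPM in siLINC01186. LSS, the cyclase that closes squalene epoxide to lanosterol, had 164 and 198 CPM in siNC and 142 and 139 CPM in siLINC01186. SREBF1 had 348 and 389.8 CPM against 291 and 292 CPM. All 3 genes were lower under siLINC01186 in each replicate, with log2 CPM differences of -0.25, -0.21 and -0.26 in replicate 1 and -0.55, -0.52 and -0.42 in replicate 2. They had the smallest p-values of the 34 and were chosen after their values were seen. The fitted log2 fold changes were -0.39 (SE 0.20) for FASN, -0.37 (SE 0.19) for LSS and -0.34 (SE 0.18) for SREBF1. Their unadjusted p-values by edgeR were 0.0805, 0.0832 and 0.0939, each with an adjusted p = 1.00, so none passed the threshold in the fit with the siRNA as the only term. FASN was called with the replicate number as a block, given in the last section.

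ACLY had 584 and 623 CPM in siNC, and 531 and 478 CPM in siLINC01186. DHCR7, the reductase of 7-dehydrocholesterol, had 203 and 227 CPM against 179.9 and 170.2 CPM. Both were lower in each replicate, and by more in replicate 2. MVD, which decarboxylates mevalonate diphosphate, and IDI1 were separated by little in replicate 1, with differences of -0.03 and -0.02, and by -0.22 and -0.39 in replicate 2. FASN weighed heavily on the sum of all members, since it held 28.5% of their CPM in siNC replicate 1 and 21.2% in siLINC01186 replicate 2. The ratio of summed CPM, siLINC01186 over siNC, was 0.916 in replicate 1 and 0.823 in replicate 2, and without FASN it was 0.945 and 0.870.

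By the size of the fitted difference, the lowest members were NPC1L1 and ELOVL6 and the highest were PMVK and HMGCS1. NPC1L1 had a log2 fold change of -1.59 (SE 1.16, adjusted p = 1.00 by edgeR) on 13 counts in siNC against 4. Its rate ratio was 0.316, with an exact interval from 0.0750 to 1.02. ELOVL6 had 17.7 and 10.3 CPM in siNC and 12.7 and 7.77 CPM in siLINC01186, with a log2 fold change of -0.46 (SE 0.34, adjusted p = 1.00 by edgeR). It was lower in each replicate, yet the arms overlapped, since siNC replicate 2 lay below siLINC01186 replicate 1. PMVK, which adds the second phosphate to mevalonate, had 40.9 and 34.4 CPM in siNC and 45.6 and 43.7 CPM in siLINC01186. The fitted difference was 0.25 (SE 0.19, adjusted p = 1.00 by edgeR). HMGCS1, the synthase that makes HMG-CoA, had 94.2 and 117 CPM against 104 and 143 CPM, with a log2 fold change of 0.23 (SE 0.22, adjusted p = 1.00 by edgeR). Leaving out single libraries moved these values, that of PMVK between 0.13 and 0.38. Without siNC replicate 1 that of ELOVL6 was -0.013, and without siLINC01186 replicate 1 it was -0.85. Without siLINC01186 replicate 2 the value for HMGCS1 was -0.023. Without siNC replicate 2 that of NPC1L1 was 0.092.

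The other members by role ranged as follows. Of the acetyl-CoA suppliers, ACSS2, the cytosolic acetyl-CoA synthetase, differed by -0.14 in replicate 1 and -0.42 in replicate 2, and ACAT2, the cytosolic thiolase, by 0.11 and -0.02. In the mevalonate pathway 2 of 6 were lower in both replicates and 3 were higher in both, a mixed picture. In squalene and sterol synthesis 5 of 11 were lower in both, among them FDFT1, squalene synthase, by -0.28 and -0.29, and 1 was higher in both. SREBF2 differed by -0.13 and -0.15, while SCAP and INSIG1 changed sign between replicates. Both enzymes of palmitate synthesis, ACACA and FASN, were lower in both replicates, ACACA, the carboxylase that makes malonyl-CoA, by -0.14 and -0.21. FADS1 and FADS2, the desaturases of polyunsaturated fatty acids, changed sign in opposite ways. LPIN1, the phosphatidate phosphatase, and ACSL3, an acyl-CoA synthetase, were lower in both.

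**Figure D2:**
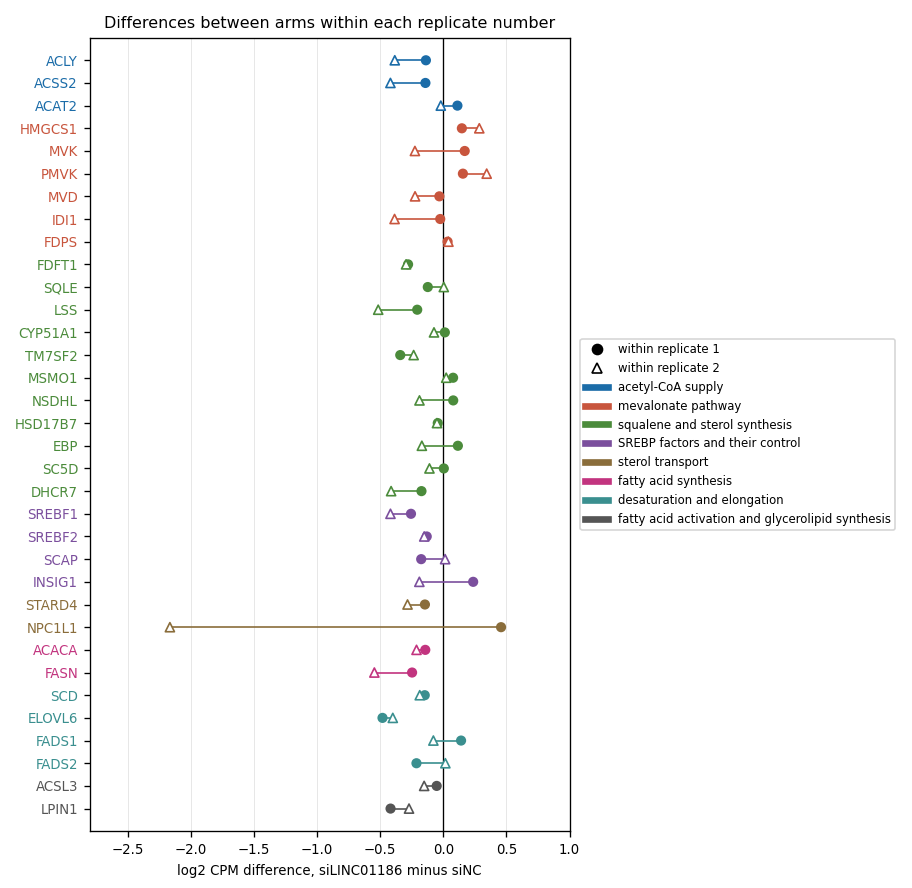
log2 CPM difference of siLINC01186 minus siNC for the 34 genes, within replicate 1 (filled circles) and within replicate 2 (open triangles), 1 library against 1 library each, with 0 as a vertical line. The 18 genes with both symbols left of 0 include FASN at -0.25 and -0.55, and NPC1L1 spans from 0.46 to -2.16 on counts of 11 or fewer.

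Another list moved differently between the replicates. The median difference of 10 hypoxia-responsive genes was 0.96 within replicate 1 and -0.23 within replicate 2. CA9, a carbonic anhydrase of that list, had 277 counts in siNC replicate 1 and 1285, 1353 and 1490 in the remaining libraries. The members' differences had the same sign of median in both replicates, and the part of this shift in their values was not tested.

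Seeds of the siRNA were looked up in the transcripts because a short interfering RNA can also pair with other messages through bases 2 to 8. The study lists 2 oligos, siSALIS_01 and siSALIS_02, shown with these bases in capitals as listed and as the complementary strand.
siSALIS_01, listed strand: aGGGCTCTattgggcaaaaa
siSALIS_01, complementary strand: tTTTTGCCcaatagagccct
siSALIS_02, listed strand: cTAAGTGActcactgcatc
siSALIS_02, complementary strand: gATGCAGTgagtcacttag
The matching 7-base strings, AGAGCCC and GGCAAAA for siSALIS_01 and TCACTTA and ACTGCAT for siSALIS_02, were searched in the longest annotated 3′ UTR (GENCODE release 29) of each protein-coding gene. For siSALIS_01, SREBF2 held 3 strings, and ELOVL6, ACACA, LSS, ACSL3, DHCR7, HMGCS1, LPIN1, NSDHL and STARD4 held 1 each. For siSALIS_02, ELOVL6 held 5 in a 3′ UTR of 5492 bases, more than any other member, CYP51A1 held 2, and SCD, LSS, ACACA and INSIG1 held 1 each. Between the replicates ELOVL6 differed by -0.78 in siNC, which received neither oligo, and by -0.70 in siLINC01186. SCD differed by 0.45 and 0.41, and a part of the strings in these values was not tested. The siSALIS_02 strings in ELOVL6 and SCD, which are called between the replicates below, are shown in capitals in 30-base windows on the transcript strand, with GRCh38 positions.
ELOVL6 (chr4:110050688-110050717, minus strand): acttcatcttcACTGCATagcctcaggcta
ELOVL6 (chr4:110049692-110049721, minus strand): ggggcttccacACTGCATagattacacgca
ELOVL6 (chr4:110048439-110048468, minus strand): gaagattttccACTGCATcccgatcctact
ELOVL6 (chr4:110048164-110048193, minus strand): gttattcgaagTCACTTActcccatccttc
ELOVL6 (chr4:110046325-110046354, minus strand): tccaaaccaacACTGCATtgtagtaacctc
SCD (chr10:100364324-100364353, plus strand): ccctgggcaagTCACTTAactataaggtgc
FASN and SREBF1 held no string of either oligo. A siSALIS_01 string was present in 10 of the 34 members, or 29.4%, against 24.4% of 14755 protein-coding genes. A siSALIS_02 string was present in 6, or 17.6%, against 22.3%. The median log2 CPM difference was -0.14 in replicate 1 and -0.19 in replicate 2 for the 13 members with a string of either oligo, and -0.03 and -0.17 for the 21 with neither. Over all protein-coding genes the medians were 0.00 and -0.04 for the 3596 genes with a siSALIS_01 string, beside 0.02 and 0.00 without. They were 0.00 and -0.10 for the 3283 genes with a siSALIS_02 string, beside 0.01 and 0.02 without. Genes without a siSALIS_02 string had shorter 3′ UTRs, with a median of 958 bases against 2957. The same held for siSALIS_01, with 964 bases against 2687.5, and for the members, with 748 bases for neither oligo against 2618. The part of this length in the medians was not tested. A string match is a description of letters, and the oligo of each library is not given in the labels.

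Replicate 2 was then compared with replicate 1. The labels give only the numbers, and the siLINC01186 arm differed in oligo between them. This contrast was larger than the one between the siRNAs. The first principal component separated the numbers and held 62.5% of the variance. edgeR's quasi-likelihood test called 2158 genes, or 9.01% of those tested, of which 1064 were higher in replicate 2 (4.44%) and 1094 lower (4.57%). Of the 34 members 4 were called, or 11.8%, 3 of them higher and 1 lower. Among the genes with a mean of at least 100 counts 14.6% were called, so the share of members called is near the background. An unadjusted p under 0.05 was found for 13 of 34, where the background was 23.4%. Both replicate 2 libraries lay above both replicate 1 libraries for 17 of 34, where the background was 27%, and below for 5, where it was 25.6%. The backgrounds for the unadjusted p and for these positions are over all genes tested. They were not taken among genes with a mean of at least 100 counts, as 33 of the 34 have.

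SCD rose in replicate 2. It had 699.8 and 632 CPM in siNC and siLINC01186 of replicate 1, and 959 and 843 CPM in replicate 2, so the replicates did not overlap. The rise was 0.44 on the log2 scale (SE 0.11, adjusted p = 0.0235 by edgeR with Benjamini-Hochberg adjustment). ACSS2 had 61.6 and 55.8 CPM in replicate 1 and 99.2 and 74.2 CPM in replicate 2, and it rose by 0.56 (SE 0.15, adjusted p = 0.0261 by edgeR). LPIN1 had 34.6 and 25.9 CPM in replicate 1 and 49.1 and 40.7 CPM in replicate 2, a rise of 0.57 (SE 0.16, adjusted p = 0.0391 by edgeR). ELOVL6 had 17.7 and 12.7 CPM in replicate 1 and 10.3 and 7.77 CPM in replicate 2, a log2 fold change of -0.76 (SE 0.21, adjusted p = 0.0303 by edgeR). SCD and ELOVL6, which follow each other on the way from palmitate to oleate, therefore stood on opposite sides.

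Each of these calls was lost when some single library was left out. Without siLINC01186 replicate 1, SCD, ACSS2 and LPIN1 had adjusted p-values of 0.161, 0.123 and 0.341, and ELOVL6 was the only member called. Without siNC replicate 2, SCD and ACSS2 had 0.0528 and 0.0645, and without siNC replicate 1 ELOVL6 had 0.302, all by edgeR. In each case the direction was as with all libraries. DESeq2's Wald test gave ELOVL6 an adjusted p of 0.0547, and with edgeR's expression filter ELOVL6 and LPIN1 had 0.0540 and 0.0513.

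Below these stood genes with an unadjusted p under 0.05 whose adjusted p missed the threshold. HMGCS1 had 94.2 and 104 CPM in replicate 1 and 117 and 143 CPM in replicate 2, with a log2 fold change of 0.39 (SE 0.13, adjusted p = 0.0767 by edgeR). INSIG1, a sterol-sensing anchor of SCAP and itself a well-known SREBP target, had 101 and 119 CPM against 152 and 133 CPM, with a log2 fold change of 0.38 (SE 0.13, adjusted p = 0.0783). STARD4, a cytosolic sterol carrier, had 31.3 and 28.3 CPM against 44.0 and 36.1 CPM, with a log2 fold change of 0.43 (SE 0.15, adjusted p = 0.0889). In all 3 the replicates did not overlap. HMGCS1 and INSIG1 were called under robust estimation (adjusted p = 0.0449 and 0.0468 by edgeR) and with the minimum of 1 count in any library (0.0342 and 0.0374). CYP51A1, the lanosterol demethylase, went the other way, with 165 and 167 CPM against 137 and 130.0 CPM. For this gene the fitted difference was -0.32 (SE 0.12, adjusted p = 0.0999). The downstream methyl oxidase MSMO1 had 41.4 and 43.7 CPM against 53.2 and 54.1 CPM, with a log2 fold change of 0.34 (SE 0.13, adjusted p = 0.130). TM7SF2 had 8.90 and 7.0 CPM against 12.2 and 10.4 CPM, with a log2 fold change of 0.50 (SE 0.20, adjusted p = 0.133). With the condition as a second term, given in the last section, HMGCS1, INSIG1, STARD4, CYP51A1 and TM7SF2 were called, and MSMO1 was not.

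FDFT1, SREBF2 and FADS2 also had an unadjusted p under 0.05, with adjusted p-values of 0.184, 0.202 and 0.176 by edgeR. FDFT1 and SREBF2 were higher in replicate 2 in both arms, and FADS2 was lower in both. Of these, FDFT1 was called with the condition as a second term. NPC1L1 had the largest fitted value, 1.12 (SE 1.09, adjusted p = 0.598 by edgeR), from 5 counts in replicate 1 and 12 in replicate 2. SREBF1, FASN and ACLY were not called with all 4 libraries, with log2 fold changes between -0.16 and 0.09. Without siNC replicate 2, FASN had -0.43 (adjusted p = 0.0237 by edgeR) and was called. The median difference of the 34 between the replicates was 0.19 in siNC and 0.03 in siLINC01186, beside 0.02 and 0.01 over all genes. Traces of hepatocyte genes moved with the same contrast, since 6 of 8 hepatocyte markers tested were called higher in replicate 2, from 0 or 1 count in replicate 1 in every case other than HNF4A. Over all genes 4.44% were called higher. Of 8 tested markers of other cell types 1 was called higher, COL1A1 (log2 fold change 0.77, adjusted p = 0.00779 by edgeR), and 0 lower, and their median log2 fold change was 0.51. The 9 listed markers of other cell types summed to 83.3 and 75.5 TPM in replicate 1 and 101 and 92.4 TPM in replicate 2. These sums, siNC first, lay above those of the hepatocyte markers. CD68 alone had 58.6 and 53.9 TPM in replicate 1 and 61.9 and 57.2 TPM in replicate 2, whereas PECAM1 and VWF were close to absent. The part of either list in the members' values was not tested, and fewer cells of a type and less RNA per cell cannot be told apart in bulk libraries.

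**Figure D3:**
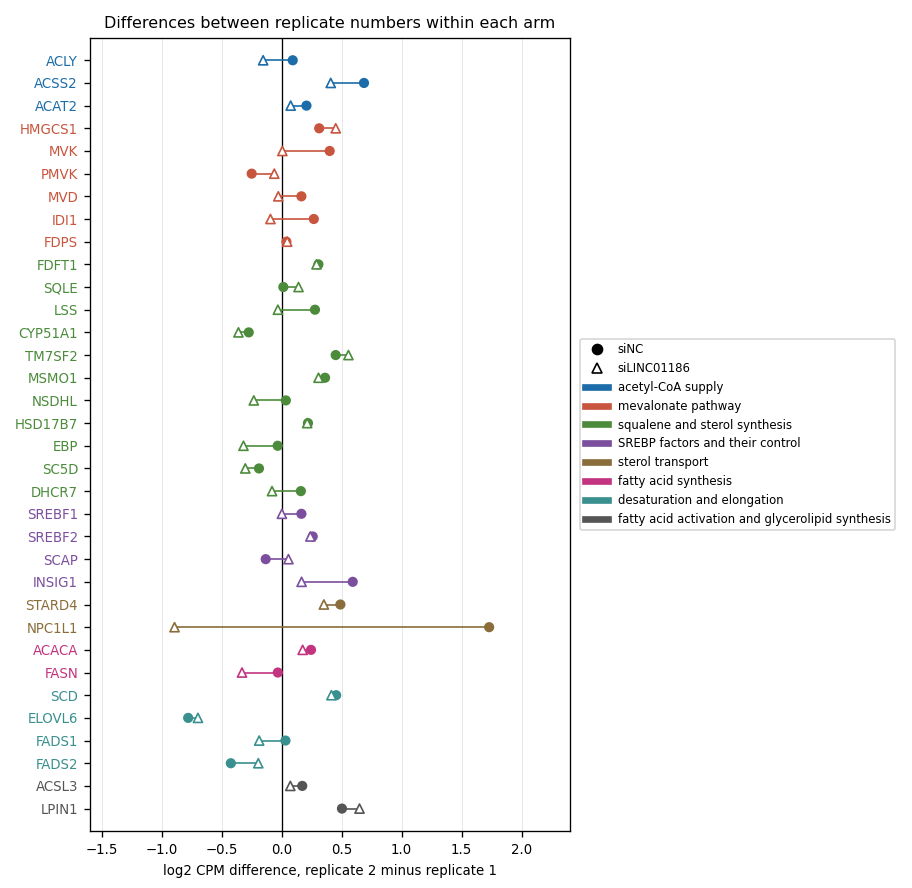
log2 CPM difference of replicate 2 minus replicate 1 for the 34 genes, within siNC (filled circles) and within siLINC01186 (open triangles), with 0 as a vertical line. SCD, ACSS2 and LPIN1 lie right of 0 in both arms and ELOVL6 lies left of 0 at -0.78 and -0.70.

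**Figure D4:**
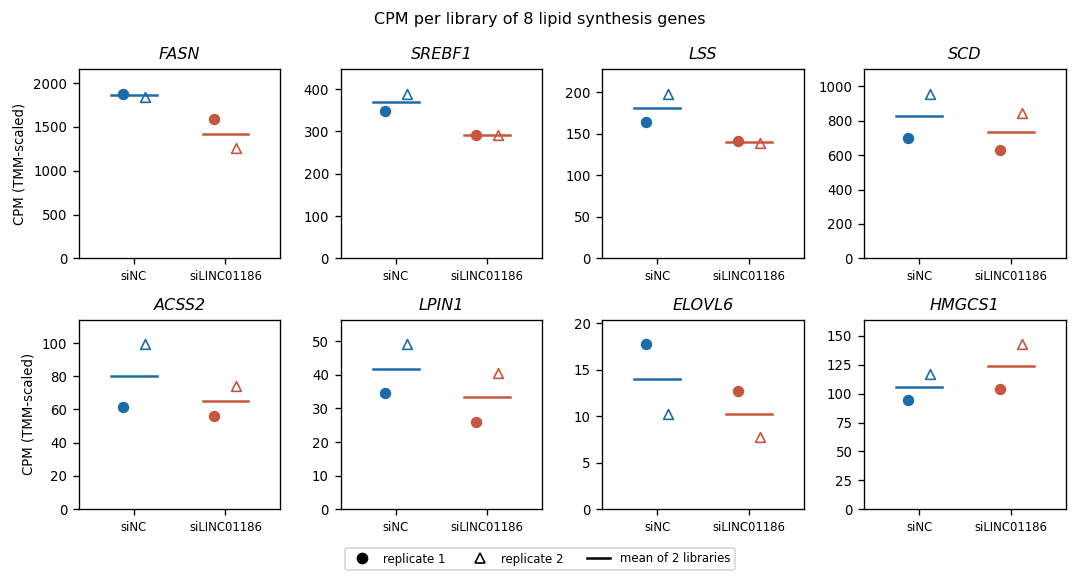
CPM of 8 genes in each library, with siNC in blue and siLINC01186 in red, replicate 1 as filled circles, replicate 2 as open triangles, and bars at the mean of 2 libraries, each axis starting at 0. FASN, SREBF1 and LSS are lower in both siLINC01186 libraries, whereas SCD, ACSS2, LPIN1, ELOVL6 and HMGCS1 separate by replicate.

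The promoters of these genes were read for the letters that the SREBPs and their partner factors are known to bind. RefSeq windows of 300 bases (250 before and 50 after the start, GRCh38.p14) matched 30 of the 34 by symbol, and ACAT2, FASN, SQLE and FDFT1 are not in that table. On both strands, TCACNCCAC, a form of the sterol regulatory element, was found in 1 of 30, SREBF2, in 1.13% of the 35116 promoters and in 1.51% of protein-coding genes. The E-box CACGTG was found in 4 of 30 (INSIG1, LSS, SC5D and SCAP), or 13.3%, in 7.26% of promoters and in 10.9% of protein-coding genes, a share near that of the members. CCAAT, bound by NF-Y, was found in 23 of 30, or 76.7%, in 34.6% of all promoters and in 42.1% of protein-coding genes. These 3 strings share no letters in the windows shown. The window of SREBF2 is given because it was the only member with the sterol regulatory string, INSIG1 because it held an E-box, and SCD because it was called between replicates. Matches are in capitals.
SREBF2 (chr22:41832855-41833154, plus strand): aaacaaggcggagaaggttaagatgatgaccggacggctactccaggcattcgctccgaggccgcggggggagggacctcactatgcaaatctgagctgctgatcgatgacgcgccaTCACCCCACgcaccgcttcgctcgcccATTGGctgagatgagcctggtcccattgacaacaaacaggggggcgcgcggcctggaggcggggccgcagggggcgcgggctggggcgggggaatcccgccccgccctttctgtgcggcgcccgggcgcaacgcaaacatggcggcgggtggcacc
INSIG1 (chr7:155297628-155297927, plus strand): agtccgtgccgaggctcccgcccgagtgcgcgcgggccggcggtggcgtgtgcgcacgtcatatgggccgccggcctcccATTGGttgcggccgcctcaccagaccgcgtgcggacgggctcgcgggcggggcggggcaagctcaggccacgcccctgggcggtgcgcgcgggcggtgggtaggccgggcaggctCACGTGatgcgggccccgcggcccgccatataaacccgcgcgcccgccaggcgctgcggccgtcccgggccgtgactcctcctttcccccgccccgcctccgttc
SCD (chr10:100346983-100347282, plus strand): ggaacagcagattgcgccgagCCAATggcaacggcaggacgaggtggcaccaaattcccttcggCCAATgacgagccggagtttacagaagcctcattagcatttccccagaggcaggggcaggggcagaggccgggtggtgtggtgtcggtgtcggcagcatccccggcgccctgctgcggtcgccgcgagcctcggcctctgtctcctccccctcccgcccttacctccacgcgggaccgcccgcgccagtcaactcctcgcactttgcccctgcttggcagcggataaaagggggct
In SREBF2 the sterol string begins 133 bases before the start and CCAAT, on the opposite strand, 106 bases before it. INSIG1 holds CACGTG at 55 and CCAAT at 170 bases, and SCD holds CCAAT at 229 and 186 bases. SREBF2, INSIG1 and SCD had differences between replicates of 0.25, 0.38 and 0.44, and none was called between the siRNAs.

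Genes that surround the route were taken from lists of related function, and their counts stand beside the shares over all genes, 9.01% called between the replicates, 4.44% higher and 4.57% lower, and 27.2% higher in both siLINC01186 comparisons. Of 10 further genes of SREBP processing and turnover, 0 were called between the siRNAs and 1 between the replicates, INSIG2, the second INSIG, with a log2 fold change of 0.73 (adjusted p = 0.0428 by edgeR). PAQR3, which tethers SCAP to the Golgi, had 13.9 and 13.1 CPM in siNC and 10.8 and 3.83 CPM in siLINC01186, and its log2 fold change of -0.90 did not pass (adjusted p = 1.00 by edgeR). Of 12 genes listed with the isoprenoid branches, routes that draw on the same farnesyl diphosphate, 4 were called lower in replicate 2 and 0 higher. They include ZMPSTE24, a prenyl-protein protease (log2 fold change -0.81, adjusted p = 0.00155 by edgeR), PDSS1, of the ubiquinone side chain (-0.72, adjusted p = 0.0136), and NUS1, of dolichol synthesis (-0.62, adjusted p = 0.0139). None of the 12 was lower in both siLINC01186 comparisons, and 8 were higher in both, without a call. FDX1L, a ferredoxin and not an enzyme that uses farnesyl diphosphate, is counted among these 8 and among the 4 called.

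Of 19 further genes of fatty acid and glycerolipid synthesis, 2 were called higher in replicate 2 and 1 lower. ACACB, the carboxylase at the mitochondrial surface, had a log2 fold change of 0.89 (adjusted p = 0.00146 by edgeR), MLXIPL, the carbohydrate-responsive factor, 0.67 (adjusted p = 0.0275), and ELOVL1, which elongates very long chains, -0.74 (adjusted p = 0.00219). Between the siRNAs 1 of the 19 had an unadjusted p under 0.05, the NADPH source ME1, at 0.46 (adjusted p = 1.00), with 486 and 449 counts in siNC and 547 and 706 in siLINC01186. It was named in addition, after its value was seen. Of 12 tested genes of sterol esterification, export and LXR control, 2 were called, both higher in replicate 2. ABCA1, the cholesterol exporter to lipid-poor apolipoprotein, had 61 and 27 counts in replicate 1 and 146 and 130 in replicate 2 (log2 fold change 1.54, adjusted p = 0.00333 by edgeR). ABCG1, its partner in export, had 59 and 49 against 251 and 195 (1.93, adjusted p = 2.11e-04). SOAT1, which esterifies cholesterol, had 162 and 207 CPM in siNC and 159.7 and 75.2 CPM in siLINC01186. It differed by -0.02 in replicate 1 and -1.46 in replicate 2, so that siLINC01186 replicate 2 stood alone, and its log2 fold change of -0.65 did not pass (adjusted p = 1.00). The fitted values of the exporters were larger than those of the 4 called members, a difference that was not tested. These 4 lists held no gene called between the siRNAs.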

How the data were processed

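RNA-seq counts of 4 libraries of cells labelled HepG2 were used, 2 per siRNA. The authors deposited raw read counts per gene and TPM values. The submitters' processing notes name hg19, HISAT2, TopHat2, Bowtie2 and HISAT without role or version, and the counting tool is not given in the sources used here. Counts of genes with at least 5 counts in all were tested with edgeR 4.0.16 under R 4.3.3 (TMM, quasi-likelihood test, Benjamini-Hochberg adjustment over 23942 genes), with siRNA or replicate number as the only term. Nothing in the labels says whether the replicates are separate cultures. The study calls them biological repeats, and p-values measure the spread between these libraries. Standard errors came from the log2 fold change and its F statistic, and log2 CPM used a prior count of 2. The alternatives were DESeq2 1.42.0, its size factors, other filters, robust dispersion, both terms in 1 model, and leaving out each library. The procedure was run on counts simulated as independent libraries with a single planted contrast at a time. Such counts lack a shift between replicate numbers beside the siRNA contrast, so they do not test the fit under it. Members and lists were chosen with earlier results of these data known. Fitted values are given for members with an unadjusted p under 0.05 (10 at most) and for the 2 largest rises and falls per comparison, and for other members only where so stated. From the surrounding lists at most 3 genes with the smallest p were named with fitted values, plus ME1, chosen after its value was seen.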

Additional observations from a re-analysis of the deposited data

How the results depend on the processing

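No member was called between the siRNAs under other size factors, the Wald test of DESeq2, a stricter or a looser filter, robust estimation, or leaving out any library (0 to 0), where a lone library is assumed to vary like those of the other arm. The replicate block was the exception. With the replicate number as a block, 278 genes were called, among them 1 member, FASN (log2 fold change -0.40, SE 0.08, adjusted p = 3.36e-04 by edgeR). SREBF1 and LSS had adjusted p-values of 0.0574 and 0.0703 by edgeR in that fit and were not called. An unadjusted p under 0.05 was found there for 9 of the 34 members and for 2005 of 23942 genes. In the replicate comparison with the condition as the second term of that block model, 4191 genes and 10 members were called. The members were the 4 of the main fit with HMGCS1, INSIG1, STARD4, CYP51A1, TM7SF2 and FDFT1. Those added had adjusted p-values of 0.00782, 0.00744, 0.0166, 0.0268, 0.0373 and 0.0313 by edgeR. The labels do not say that a number marks a shared culture. Across genes, same-numbered libraries deviated together with a correlation of 0.570, from only 2 pairs. The genes called between the siRNAs numbered 1 with DESeq2's test, 5 with the minimum of 1 count in any library and 0 to 6 with a library left out. Those past the study's limits numbered 181, and 27 with DESeq2's test, 46 with edgeR's filter and 248 to 375 with a library left out. Between replicates 2158 genes were called, and 1294 to 3332 with a library left out. The study's limits gave 1309, and 655 with DESeq2's test. Of the members 4 were called, 2 with edgeR's filter and 1 to 9 with a library left out. The low of 1 came without siLINC01186 replicate 1 and the high of 9 without siLINC01186 replicate 2.

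ELOVL6 between the siRNAs ranged from -0.85 to -0.013 and HMGCS1 ranged from -0.023 to 0.43 with a library left out, and NPC1L1 from -2.67 to 0.092, the last without siNC replicate 2. NPC1L1 between replicates ranged from -1.39 to 2.02, the lowest also without siNC replicate 2. On deposited TPM the median difference of the members was -0.33 in replicate 1 and -0.27 in replicate 2, beside -0.18 and -0.05 over all genes. Between replicates in siLINC01186 it was 0.21 on TPM and 0.18 with the plain library size, beside 0.12 and 0.15 over all genes and 0.03 in the main analysis. The plain library size leaves out the TMM factors, which were 0.955 and 1.06 in siLINC01186 replicates 1 and 2. TPM holds the shares of MIR6087 given above. A cause of the shifts under the other settings was not tested. The order of the members by level was the same on TPM and on CPM per length.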
